A study of Mus musculus with 2 samples.

Results

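In all, 10 genes of fat synthesis and triglyceride handling were followed through barcodes of different sizes in 2 single-cell RNA libraries of mouse liver: Thrsp, Scd1, Fasn, Acaca, Acly, Elovl6, Srebf1, Lpin1, Pnpla3 and Me1. They are 10 of the 32285 genes in the count tables, taken as a fixed list because some of them differ between the libraries in opposite directions in small and in large barcodes. Each library came from 1 tumour-free Glul f/f mouse, whose Glul alleles are floxed, aged 11 weeks when infected. The control mouse received AAV8-GFP and the other, called GS_KO, received AAV8-Cre, and livers were taken 2 weeks later. The cells loaded were hepatocytes freed with collagenase and, beside them, purified non-parenchymal cells. The promoter driving Cre or GFP is not named in the labels, which use the terms sc and snRNA-seq for the same libraries. Each group is 1 library from 1 mouse, so no test between conditions is possible, and every interval is a 95% interval of counting error only.

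Fatty acids are built in the cytosol of the hepatocyte. ATP citrate lyase (Acly) makes acetyl-CoA from citrate, acetyl-CoA carboxylase (Acaca) makes malonyl-CoA from it, and fatty acid synthase (Fasn) joins these units with NADPH supplied in part by malic enzyme (Me1). Elovl6 lengthens the product, Scd1 puts in a double bond, and lipin (Lpin1) makes the diacylglycerol from which triglyceride is formed. SREBP1c, a product of Srebf1, together with ChREBP drives much of this programme in fed liver. Glul encodes glutamine synthetase, which in liver is made by hepatocytes next to the central vein.

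Barcodes were grouped by their total of unique molecular identifiers (UMIs) and the UMIs of each group were summed, so a level below is the gene's count per 1000000 UMIs of that sum (CPM). Small barcodes had 200 to under 400 UMIs, middle barcodes 500 to under 1000 and large barcodes at least 1000. The control library held 166037 barcodes, of which 116552 were small, 11989 middle and 1703 large. The GS_KO library held 175937, of which 143687 were small, 10037 middle and 1834 large. The labels state that at least 10000 cells were sequenced. Of the barcode sequences, 8108 occurred in both libraries (4.88% of control and 4.61% of GS_KO barcodes). The 8 hepatocyte markers were all detected in every size class and summed to 58161 CPM in control and 51375 CPM in GS_KO large barcodes. Of 4 adipocyte markers, Adipoq, Plin1, Cfd and Lep, none had a UMI in the large or middle barcodes of either library. Glul stood at 113 CPM in control and 9.78 CPM in GS_KO small barcodes, and at 124 and 31.5 CPM in large ones. The labels do not say which exons are floxed, so whether these UMIs, read from the 5′ end, fall in the deleted part was not tested.

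Across the 10 members, the log2 ratio of GS_KO over control ranged from -3.37 to 1.79 in small barcodes and from -3.50 to 3.18 in large ones. A gene was counted as past 2-fold only where it had at least 50 UMIs in both libraries together, which 9 members had in small and in large barcodes and all 10 in middle ones, Pnpla3 being the exception. In small barcodes 1 member was more than 2-fold higher in GS_KO (Scd1), against 11.0% of 12268 genes, and 2 were more than 2-fold lower (Thrsp and Lpin1), against 3.71%. In middle barcodes Scd1 and Pnpla3 were past 2-fold higher, against 12.8% of 10625 genes, and Thrsp and Lpin1 past 2-fold lower, against 3.12%. In large barcodes Scd1 was past 2-fold higher, against 10.4% of 8018 genes, and Thrsp, Lpin1 and Me1 were past 2-fold lower, against 5.15%. The median log2 ratio of all 10 members was 0.27 in small, -0.11 in middle and -0.57 in large barcodes. That of all genes with at least 50 UMIs was -0.04, 0.11 and 0.00. The member medians count Pnpla3 also where it was under this minimum. Over the 9 members that met it, the middle value was that of Acaca, at 0.03 in small and -0.62 in large barcodes.

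Of the 10 members, 4 lay on opposite sides of 0 in small and large barcodes: Fasn, Acaca, Acly and Elovl6. In 3 of them (all but Acaca) both intervals lay off 0, with GS_KO higher in small and lower in large barcodes. Of 7965 genes with enough UMIs in both classes, 29.2% lay on opposite sides, 5.67% did so with both intervals off 0, and 1.13% did so in the direction of Fasn, Acly and Elovl6. The members were chosen with this pattern in view, so their count describes the choice.

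**Figure D1:**
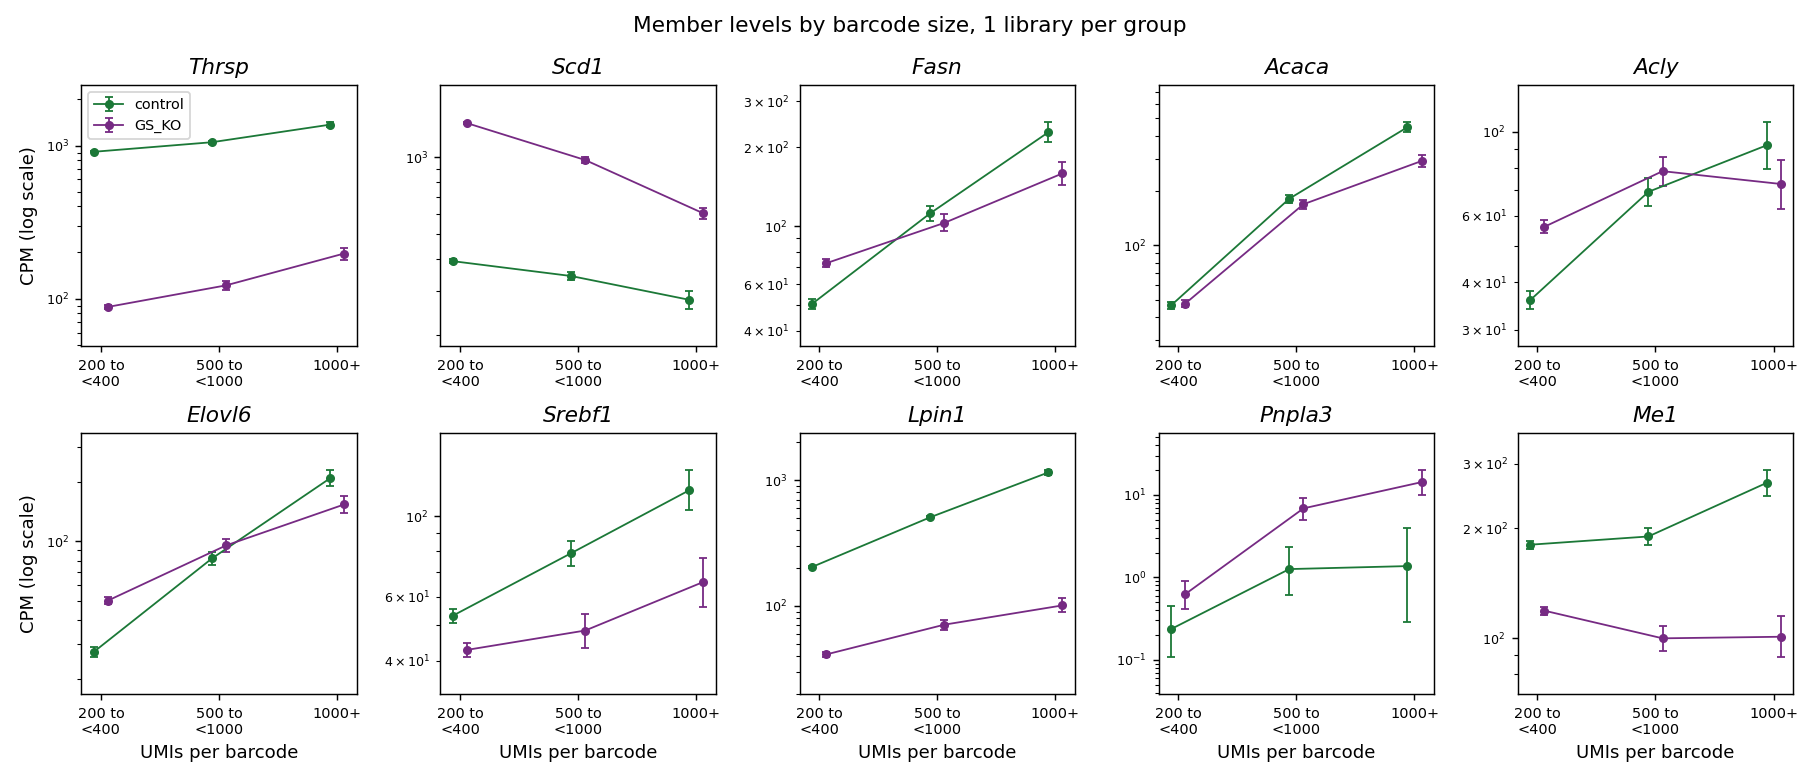
Level of each member (CPM, log axis) in barcodes of 200 to under 400, 500 to under 1000 and at least 1000 UMIs, with exact 95% Poisson intervals, 1 library per group. The control and GS_KO lines cross for Fasn, Acly and Elovl6, start together for Acaca, and keep apart for Thrsp, Scd1, Srebf1, Lpin1 and Me1.

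Among the regulators, Thrsp showed the widest gap in small barcodes. It encodes Spot 14, a small acidic protein of lipogenic tissues that responds to thyroid hormone and carbohydrate. Its level was 910.1 CPM in control and 88.2 CPM in GS_KO small barcodes, 1051 and 122 CPM in middle barcodes, and 1369 and 197 CPM in large ones. GS_KO was thus 10.3-fold lower in small barcodes (9.97 to 10.7), 8.63-fold lower in middle ones (8.03 to 9.28) and 6.96-fold lower in large ones (6.31 to 7.67). The control and GS_KO intervals were far apart in every size class. Thrsp lies on chromosome 7, from 97412938 to 97417730 on the minus strand of GRCm38, the assembly also called mm10.

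Srebf1, the gene of the sterol-regulated factor SREBP1, was lower in GS_KO in all 3 classes. Its level was 53.2 and 42.8 CPM in small, 79.1 and 48.4 CPM in middle, and 118 and 65.9 CPM in large barcodes, control first. The log2 ratio was -0.31 (-0.40 to -0.22), -0.71 (-0.91 to -0.51) and -0.84 (-1.14 to -0.55), and no interval reached 0. Its 3′ end overlaps Rai1 on the opposite strand by annotation, and Rai1 had 686 control and 658 GS_KO UMIs over all barcodes beside 3636 and 2616 of Srebf1.

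The promoters of Srebf1 and Fasn are printed because the former gene was lower in GS_KO in all 3 size classes while the latter changed side. Each is the 250 bases before a RefSeq start site on GRCm38.p6 (for Srebf1 the first listed of several), which abuts the GENCODE gene, read 5′ to 3′ on the gene's own strand. Capitals mark CCAAT or its reverse complement ATTGG. The Srebf1 stretch is chr11:60222582-60222831 and the Fasn stretch chr11:120824548-120824797, both on the minus strand.
Srebf1: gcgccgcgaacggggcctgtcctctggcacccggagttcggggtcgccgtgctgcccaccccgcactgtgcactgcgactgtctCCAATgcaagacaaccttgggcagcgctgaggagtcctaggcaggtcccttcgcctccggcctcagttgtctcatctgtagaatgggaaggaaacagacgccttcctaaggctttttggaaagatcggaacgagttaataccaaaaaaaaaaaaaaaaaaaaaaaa
Fasn: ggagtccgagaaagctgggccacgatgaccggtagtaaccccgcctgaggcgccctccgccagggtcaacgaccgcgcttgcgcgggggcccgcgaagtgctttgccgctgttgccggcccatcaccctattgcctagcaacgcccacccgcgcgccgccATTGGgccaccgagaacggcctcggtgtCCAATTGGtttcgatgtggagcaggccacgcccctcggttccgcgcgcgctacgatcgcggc
This Srebf1 window held 1 match, at -166 to -162 from the start site. Of the other Srebf1 windows, chr11:60210472-60210721 held 1 match, at -30 to -26, and chr11:60220628-60220877 held none. Which of these start sites was used in these livers was not tested. Fasn held 3, at -90 to -86, -62 to -58 and -59 to -55, and the last of these overlaps its neighbour. RefSeq promoter entries were found for 9 of the 10 members, and 5 of these held a CCAAT match on either strand (Thrsp, Fasn, Srebf1, Pnpla3 and Me1). For Srebf1 and Me1 not every start site had a match. By window, 6 of the 12 entries of members held a match, and 33.8% of 32851 promoter windows of this length did. No member's window held the E-box CACGTG, present in 6.02% of all windows, or the sterol element TCACNCCAC, present in 1.05%.

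Of the 2 enzymes that supply carbon and reducing power, Acly changed side and Me1 did not. Acly stood at 35.9 CPM in control and 56.1 CPM in GS_KO small barcodes, at 69.4 and 78.7 CPM in middle ones, and at 92.1 and 72.8 CPM in large ones. GS_KO was 1.56-fold higher in small barcodes (1.46 to 1.67) and 1.26-fold lower in large ones (1.03 to 1.56), with 201 control and 178 GS_KO UMIs behind the large value. Me1 stood at 180.3 and 119 CPM in small, 189.9 and 100.0 CPM in middle, and 266 and 101 CPM in large barcodes. GS_KO was 1.52-fold lower in small barcodes (1.46 to 1.57) and 2.63-fold lower in large ones (2.26 to 3.06). The Me1 level climbed with barcode size in the control library and not in GS_KO.

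The enzymes of the chain itself differed among themselves. Fasn stood at 50.6 CPM in control and 72.3 CPM in GS_KO small barcodes, at 112 and 103 CPM in middle ones and at 228 and 159 CPM in large ones. GS_KO was 1.43-fold higher in small barcodes (1.35 to 1.51) and 1.44-fold lower in large ones (1.26 to 1.65), and in middle barcodes the interval of the log2 ratio, -0.26 to 0.03, reached 0. Fasn lies on chromosome 11, from 120805846 to 120824547 on the minus strand. Elovl6, on chromosome 3 from 129532355 to 129638495, also changed side, but in middle barcodes it was still higher in GS_KO, at 0.22 on the log2 scale (0.06 to 0.38). Its level was 27.5 and 50.1 CPM in small, 81.9 and 95.4 CPM in middle and 209 and 154 CPM in large barcodes, so GS_KO was 1.82-fold higher in the first (1.69 to 1.96) and 1.36-fold lower in the last (1.18 to 1.56).

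Acaca did not differ beyond counting error in small barcodes, at 46.5 and 47.6 CPM (log2 ratio 0.03, -0.06 to 0.12), nor in middle ones, at 180.2 and 168 CPM (-0.10, -0.22 to 0.01). In large barcodes it stood at 447 CPM in control and 291 CPM in GS_KO, 1.54-fold lower (1.39 to 1.69). Acaca and Elovl6 each overlap an opposite-strand gene. Gm11437 within Acaca had 212 control and 383 GS_KO UMIs over all barcodes beside 4975 and 4220 of Acaca, and Gm35986 at the start of Elovl6 had 126 and 123 beside 2537 and 3463. Whether counting used the strand is not stated in the labels.

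Scd1, which makes oleate and palmitoleate from saturated chains, was higher in GS_KO in all 3 size classes. Its level was 391 CPM in control and 1358 CPM in GS_KO small barcodes, 342 and 974 CPM in middle ones and 276 and 602 CPM in large ones. The fold narrowed from 3.47 (3.41 to 3.53) through 2.84 (2.72 to 2.98) to 2.18 (1.98 to 2.40). The 2-fold call in large barcodes was lost at a minimum of 1500 UMIs (log2 ratio 0.84) or 2000 UMIs (0.49) and with the small-barcode profile taken off at 25% of UMIs (0.56). At 50% no GS_KO UMI of Scd1 was left and the direction turned (-6.15, a bound from 3 counts). Scd1 lies on chromosome 19, from 44394455 to 44407879. Unlike Fasn, Scd1 had its highest level in small barcodes in both libraries.

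Of the triglyceride genes, Lpin1 and Pnpla3 lay at opposite ends. Lpin1 stood at 204 CPM in control and 41.2 CPM in GS_KO small barcodes, 506 and 71.0 CPM in middle ones and 1149 and 101 CPM in large ones. GS_KO was 4.97-fold lower (4.71 to 5.23), 7.13-fold lower (6.48 to 7.85) and 11.4-fold lower (9.97 to 13.0), so the gap widened with barcode size while that of Thrsp narrowed. Lpin1 lies on chromosome 12, from 16535669 to 16610966. Pnpla3, the gene of a lipid droplet protein tied to fatty liver in people, was sparse: 9 control and 27 GS_KO UMIs in small, 10 and 46 in middle, and 3 and 35 in large barcodes. Its ratio was 5.44 in middle barcodes (2.71 to 12.1) and 10.4 in large ones (3.28 to 53.0), GS_KO being higher.

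In finer size classes the members changed side at different sizes. The log2 ratio of Fasn was 0.39 (0.23 to 0.55) at 200 to under 300 UMIs and 0.35 (0.15 to 0.55) at 400 to under 500. It was -0.05 (-0.24 to 0.14) at 500 to under 750, -0.45 (-0.68 to -0.23) at 1000 to under 1500 and -0.73 (-1.11 to -0.35) from 1500 UMIs. Acly remained higher in GS_KO at 500 to under 750 UMIs, at 0.44 (0.22 to 0.66), and its interval reached 0 at 750 to under 1000 and at 1000 to under 1500, lying below 0 from 1500 UMIs, at -0.91 (-1.58 to -0.25). Elovl6 was at 0.35 (0.14 to 0.57) at 500 to under 750, 0.06 (-0.18 to 0.31) at 750 to under 1000 and -0.57 (-0.82 to -0.32) at 1000 to under 1500, and its interval reached 0 again from 1500 UMIs, at -0.28 (-0.64 to 0.08). Acaca had no single course. At 100 to under 200 UMIs it was already lower in GS_KO, at -1.15 (-1.60 to -0.71), with 107 control and 76 GS_KO UMIs. At 400 to under 500 it was higher, at 0.26 (0.05 to 0.47). The nuclear RNA Malat1 also changed side, from -0.67 at 100 to under 200 and -0.16 at 300 to under 400 to 1.46 at 400 to under 500. Barcodes of equal size thus need not hold like content in the 2 libraries, and its part in these ratios was not tested.

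**Figure D2:**
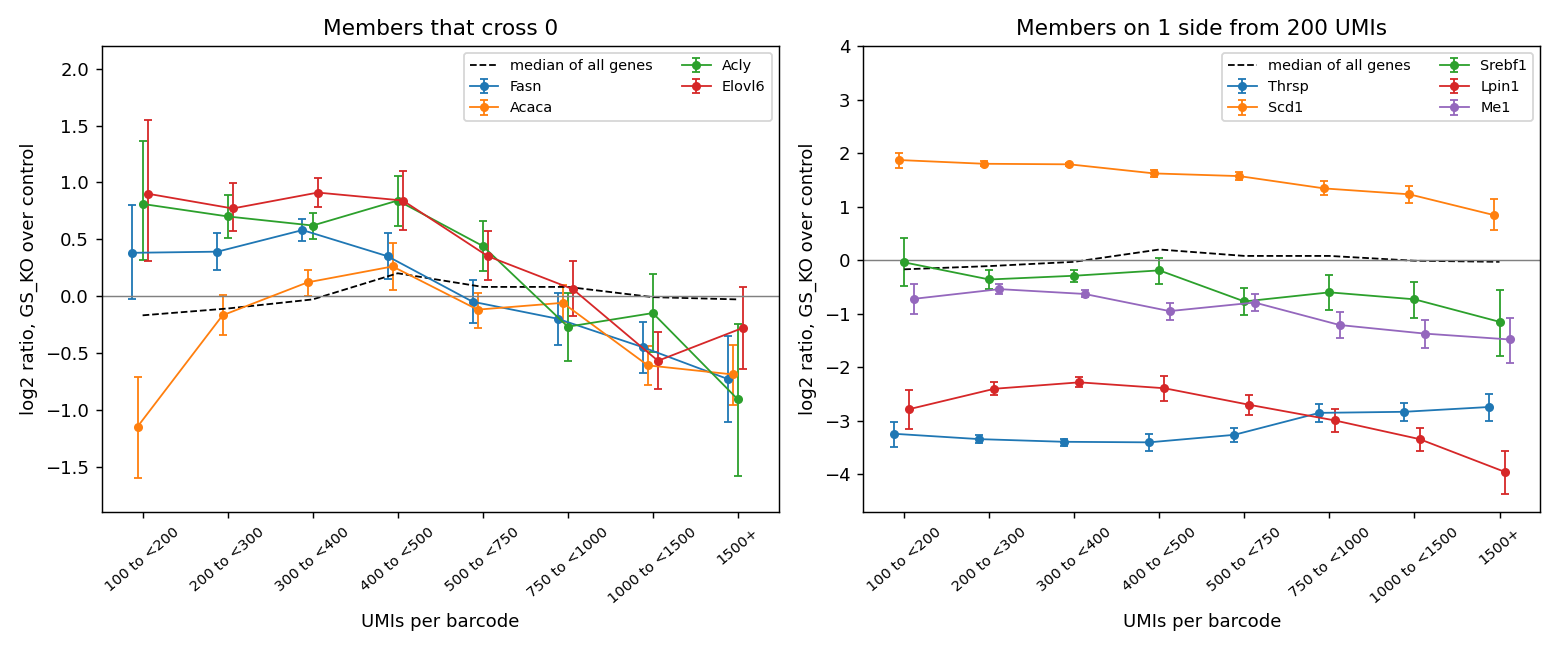
log2 ratio of GS_KO over control in 8 classes of barcode size, with 95% counting intervals, for 9 members (Pnpla3 is left out as too sparse). The dashed line is the median of all genes with at least 50 UMIs. Fasn, Acly and Elovl6 start above 0 and end below it, while Scd1 stays above and Thrsp, Lpin1 and Me1 stay below throughout.

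Within each library the members also differed in how their level moved from small to large barcodes. In the control library the log2 ratio of large over small was 3.26 for Acaca (3.15 to 3.38), 2.93 for Elovl6 (2.77 to 3.09), 2.49 for Lpin1 (2.42 to 2.56) and 2.17 for Fasn (2.03 to 2.31). It was 0.59 for Thrsp, 0.56 for Me1 and -0.50 for Scd1. All genes had a median of 0.38 and the members one of 1.77. The member median counts Pnpla3 at 2.68 (0.02 to 4.54), from only 9 small-barcode and 3 large-barcode control UMIs. Without Pnpla3 the middle value in control was that of Acly, at 1.36. In GS_KO the ratio was smaller for 8 members, among them Fasn at 1.14 (0.98 to 1.29), Elovl6 at 1.62 (1.46 to 1.78) and Acly at 0.38 (0.15 to 0.60). Thrsp, at 1.16 (1.02 to 1.29), and Pnpla3 were the 2 that were larger. The members' median in GS_KO was 1.15 against 0.55 for all genes. Without Pnpla3 the middle value there was that of Fasn, at 1.14.

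Several measures of barcode content moved with size in the same libraries. From small to large barcodes the mitochondrial share of UMIs went from 9.32% to 3.64% in control and from 8.38% to 2.41% in GS_KO. Malat1, a nuclear RNA, went from 1709 to 19613 CPM and from 1365 to 37630.1 CPM. Albumin went the other way, with log2 ratios of large over small of -0.96 in control and -1.49 in GS_KO. The annotated gene spans 271980 bases for Acaca, 106141 for Elovl6, 75298 for Lpin1 and 114583 for Me1, against 4793 for Thrsp, 13425 for Scd1 and 18702 for Fasn. Me1, the second longest of the 10, had one of the smaller ratios of large over small, and the part of gene span in these ratios was not tested.

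**Figure D3:**
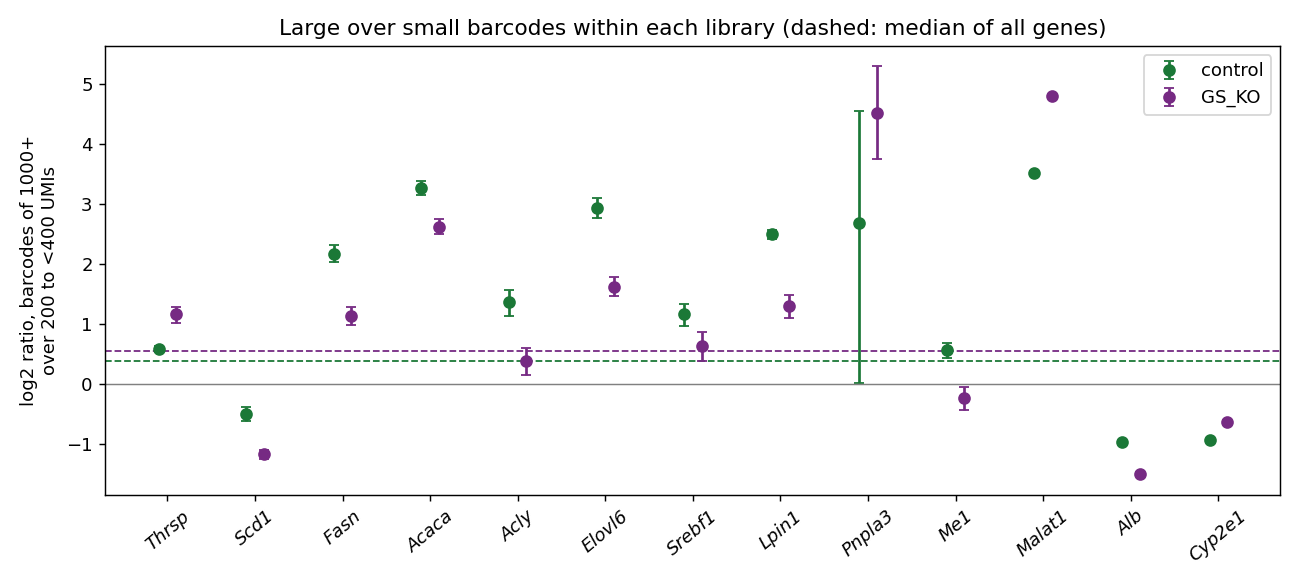
log2 ratio of the level in barcodes of at least 1000 UMIs over that in barcodes of 200 to under 400, within each library, with 95% counting intervals, for the 10 members and for Malat1, Alb and Cyp2e1. Dashed lines are the medians of all genes (0.38 in control, 0.55 in GS_KO). Most members lie above the dashed lines, Scd1 lies below 0 in both libraries, and Malat1 is at 3.52 and 4.79.

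Splitting each size class by mitochondrial share, chosen after seeing the data, changed some of these values. Among middle barcodes the log2 ratio of Acaca was -0.54 (-0.78 to -0.29) under 3% mitochondrial UMIs, -0.52 (-0.69 to -0.36) from 3% to under 6%, and -0.52 (-0.76 to -0.28) at 6% or more. Each of these was lower than the -0.10 of all middle barcodes together. The make-up of the class differed between libraries, with 683 control and 1896 GS_KO middle barcodes under 3% and 7904 and 4196 at 6% or more. Fasn in middle barcodes was -0.52 (-0.84 to -0.18), -0.49 (-0.72 to -0.26) and -0.22 (-0.48 to 0.04) in the same order. Acly was -0.67 (-1.09 to -0.24), -0.20 (-0.47 to 0.08) and 0.46 (0.17 to 0.74), so at 500 to under 1000 UMIs it lay on opposite sides of 0 at the low and high ends of mitochondrial share.

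In small barcodes Fasn was at 0.46 (0.23 to 0.70) from 3% to under 6% and at 0.50 (0.41 to 0.59) above, and Elovl6 at 0.84 (0.52 to 1.18) and 0.86 (0.75 to 0.98). From 3% to under 6%, Srebf1 was at -0.48 (-0.74 to -0.21) and Thrsp at -3.50 (-3.63 to -3.38), both further below 0 than over all small barcodes, and Pnpla3, with 1 control and 3 GS_KO UMIs, at 0.14 (-3.14 to 6.22). Only 193 control and 847 GS_KO small barcodes were under 3%, and there the intervals of Fasn, Acaca, Acly and Elovl6 all reached 0. The ratios there were -0.67 for Fasn (-1.82 to 0.76), -0.43 for Acaca (-1.62 to 1.10), 0.05 for Acly (-1.39 to 2.19) and -0.18 for Elovl6 (-1.66 to 1.98). Each was below its value over all small barcodes, from few control UMIs (8 for Fasn). In large barcodes with at least 5% mitochondrial UMIs, 361 in control and 119 in GS_KO, Fasn was at 0.39 (-0.38 to 1.09) and Acly at 0.50 (-0.55 to 1.43), so 2 members rather than 4 lay on opposite sides. In large barcodes under 5%, Fasn was at -0.67 (-0.87 to -0.46) and Acly at -0.44 (-0.76 to -0.12). Thrsp, Lpin1 and Me1 were lower and Scd1 higher in GS_KO in every one of these splits, although the interval of Me1 reached 0 in small barcodes under 3%.

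Markers of other cells were found in both libraries and differed between them. The 8 Kupffer cell markers summed to 58.2 CPM in control and 259.9 CPM in GS_KO large barcodes, and to 66.7 and 323 CPM in small ones, with none at 0. The 8 lymphocyte and plasma cell markers summed to 110.4 and 277 CPM in large barcodes, with 2 of them at 0 in control. The 4 cholangiocyte markers summed to 0 and 15.6 CPM there. Sums for sinusoidal endothelial markers (109.5 and 98.2 CPM) and stellate markers (230.0 and 210.4 CPM) were not higher in GS_KO large barcodes. In small barcodes they were higher in GS_KO, at 144 and 195 CPM and at 288 and 315 CPM. Leaving out the 158 control (9.28%) and 290 GS_KO (15.8%) large barcodes with at least 2 UMIs of markers of cells other than hepatocytes gave -0.53 for Fasn (-0.74 to -0.33), -0.46 for Acly (-0.79 to -0.15) and -2.74 for Thrsp (-2.90 to -2.60). Markers of NF-kB activity (Csf1, Birc3, Relb, Icam1) had a UMI in 84 control large barcodes (4.93%) and 571 GS_KO ones (31.1%). Without those barcodes Fasn was at -0.48 (-0.70 to -0.26), Thrsp at -2.62 (-2.78 to -2.47) and Acly at -0.22 (-0.55 to 0.11), whose interval then reached 0. The core clock gene Arntl stood at 1.83 CPM in control and 116 CPM in GS_KO large barcodes. Dbp, also read for clock phase, went the opposite way, at 73.3 and 1.64 CPM. The labels name no time of day for the sampling, and its part in the members' differences was not tested.

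Large barcodes were also ranked within each library on 8 pericentral against 8 periportal markers and divided in 3 equal parts. This is a range of a score, and 777 control and 480 GS_KO barcodes lay within 0.05 of a cut. The parts are not matched between the libraries, since they were cut at scores of 0.455 and 0.600 in control and 0.273 and 0.50 in GS_KO, and the 8 pericentral markers summed to 7707 CPM in control and 3379.6 CPM in GS_KO large barcodes. In control, pericentral over periportal log2 ratios with intervals off 0 were 0.47 for Scd1 (0.18 to 0.76), -0.14 for Thrsp (-0.27 to -0.01) and -0.37 for Lpin1 (-0.51 to -0.23). In GS_KO they were -0.84 for Acly (-1.44 to -0.27) and -0.60 for Lpin1 (-1.09 to -0.14). Barcode content also differed between the control parts. From the periportal to the pericentral end Malat1 went from 22111 to 17063 CPM and the mitochondrial share from 3.16% to 4.07%. In GS_KO Malat1 stood at 37886 and 38291 CPM and the share at 2.36% and 2.38%. The part of barcode content in these ratios was not tested. Between parts of the same name, which span different scores, each member's GS_KO over control ratio lay on the same side of 0. The intervals of Acly reached 0 at the periportal end and in the middle, and that of Pnpla3 at the periportal end (2.02, -0.55 to 8.01). Fasn was at -0.37 (-0.71 to -0.03) at the periportal end, -0.66 (-1.01 to -0.32) in the middle and -0.54 (-0.89 to -0.20) at the pericentral end.

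At a minimum of 500 UMIs several members in control had lower pericentral over periportal ratios. These were -0.92 for Acly (-1.19 to -0.65), -0.81 for Acaca (-0.96 to -0.66) and -0.48 for Fasn (-0.68 to -0.29). The parts then mix middle and large barcodes, between which control levels differ, as for Acaca (180.2 and 447 CPM) and Fasn (112 and 228 CPM). The part of barcode size in the lower ratios was not tested. Scd1 lay toward the pericentral end in both libraries, at 0.33 (0.20 to 0.45) in control and 0.27 (0.19 to 0.35) in GS_KO.

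With each large barcode thinned to 1000 UMIs, a Thrsp UMI was found in 72.2% of control (70.0 to 74.3, exact binomial) and 16.8% of GS_KO barcodes (15.1 to 18.6), and a Lpin1 UMI in 64.4% (62.1 to 66.7) and 9.65% (8.34 to 11.1). Before thinning the Thrsp shares were 79.0% and 20.9%. The level of small barcodes alone would give 59.8% and 8.45% for Thrsp and 18.5% and 4.03% for Lpin1, so the Thrsp share in control stood closer to it than that of Lpin1. Scd1 was found in 23.3% (21.3 to 25.3) and 43.7% (41.4 to 46.0), below the 32.4% and 74.3% that the level of small barcodes would give. In the 14 control and 82 GS_KO barcodes with at least 3 Kupffer cell marker UMIs, of median depth 1183 and 1284 UMIs against 1190.0 and 1209 over all large barcodes, Thrsp was found in 57.1% (28.9 to 82.3) and 3.66% (0.761 to 10.3) and Fasn in 14.3% (1.78 to 42.8) and 13.4% (6.89 to 22.7). The intervals of the Fasn shares over all large barcodes, 18.1% to 21.9% and 13.1% to 16.4%, overlap these. The level of small barcodes would give 4.94% and 6.97%. These lie below the intervals of all large barcodes but within those of the Kupffer cell marker barcodes. The Kupffer cell marker barcodes are too few for close limits. The variance of thinned UMIs over their mean lay between 0.999 and 1.23 for every member in both libraries, where random sampling from 1 common level gives about 1. The mean was 1.35 for Thrsp and 1.13 for Lpin1 in control and 0.619 or less otherwise. At low means this ratio lies near 1 even where levels differ between barcodes, so it cannot show a common level.

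Around the members, 72 other genes of fat synthesis and triglyceride handling were read by role, from a list chosen with earlier results of these data known. In small barcodes 70 had at least 50 UMIs, of which 41 were higher and 29 lower in GS_KO, 8 and 5 of them past 2-fold, with a median log2 ratio of 0.09. All genes divided into 5743 higher and 6525 lower there, with 11.0% and 3.71% past 2-fold. In large barcodes 59 had enough UMIs, 27 higher and 32 lower, 10 and 8 past 2-fold, with a median of -0.12, where all genes divided into 4033 higher and 3985 lower, with 10.4% and 5.15% past 2-fold. The genes of carbon and NADPH supply had a median of 0.29 in small (8 of 10 higher) and -0.78 in large barcodes (2 of 8 higher). Those of chain synthesis, elongation and desaturation had one of 0.48 in small (10 of 11 higher) and -0.17 in large barcodes (3 of 9 higher). Over both roles, 17 genes had enough UMIs in both classes and 9 lay on opposite sides, all 9 of them higher in small and lower in large barcodes, among them Khk, Tkfc, Gpd1, Acacb, Fads1, Fads2, Hsd17b12 and Tecr. Among all 7965 genes, 678 had this direction and 1649 the reverse.

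Khk, the kinase that starts fructose breakdown, stood at 243 CPM in control and 319.8 CPM in GS_KO small barcodes and at 263 and 154 CPM in large ones, log2 ratios of 0.39 (0.36 to 0.43) and -0.77 (-0.96 to -0.58). Acacb, the mitochondrial carboxylase isoform, stood at 6.96 and 11.3 CPM in small and at 56.4 and 17.6 CPM in large barcodes (0.70, 0.49 to 0.93, and -1.67, -2.22 to -1.17). The intervals of Fads1 and Tecr reached 0 in both classes, and that of Hsd17b12 in large barcodes. Control genes, the sensors and factors of the programme, went the other way, with medians of 0.16 in small and 0.32 in large barcodes, 10 of 13 being higher in the latter.

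Other genes lay on 1 side. Insig2, which retains the SREBP precursor in the endoplasmic reticulum, stood at 69.3 CPM in control and 342 CPM in GS_KO small barcodes and at 93.0 and 1113 CPM in large ones, log2 ratios of 2.30 (2.24 to 2.36) and 3.58 (3.37 to 3.79). Elovl3, an elongase of very long chains, stood at 12.5 and 160.4 CPM in small and 5.04 and 81.4 CPM in large barcodes, 3.68 (3.54 to 3.82) and 3.95 (3.14 to 5.04). Hsd17b13, a lipid droplet enzyme, had 0.84 (0.78 to 0.89) in small and 2.00 (1.80 to 2.22) in large barcodes. G6pdx, which makes NADPH, had 1.84 (1.36 to 2.38) in small barcodes from 42 control and 172 GS_KO UMIs, and in large barcodes, with 3 and 9 UMIs and so under the minimum, 1.28 (-0.58 to 3.94).

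Lpl, the lipase that frees fatty acids from circulating lipoproteins, stood at 2.60 CPM in control and 61.0 CPM in GS_KO small barcodes (4.55, 4.26 to 4.86) and had 2 control and 91 GS_KO UMIs in large ones (5.03, 3.45 to 8.41). Macrophages also make Lpl, and the Kupffer cell markers given above were higher in GS_KO. In large barcodes with under 2 UMIs of markers of other cells, Lpl had 0 control and 76 GS_KO UMIs, at least 24.4-fold higher against a floor of 3 counts. Its GS_KO level was 37.2 CPM both there and over all large barcodes, below the 61.0 CPM of small barcodes. A cut on so few UMIs need not remove every macrophage, and the cells from which these UMIs came were not tested.

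On the lower side, Mgll, which splits monoglycerides, stood at 128 CPM in control and 70.9 CPM in GS_KO small barcodes and at 551 and 113 CPM in large ones (-0.86, -0.92 to -0.79, and -2.29, -2.49 to -2.10). Pklr, the liver pyruvate kinase, stood at 33.3 and 32.0 CPM in small and at 139.8 and 40.1 CPM in large barcodes (-0.06, -0.17 to 0.05, and -1.80, -2.14 to -1.47). Apoc3, an inhibitor of triglyceride clearance, was lower in both, at -1.03 (-1.04 to -1.02) and -1.42 (-1.49 to -1.34). Angptl8, an inhibitor of lipoprotein lipase, was at -1.54 (-1.59 to -1.50) in small and -0.54 (-0.70 to -0.38) in large barcodes, and Lpin2, a lipin paralogue, at -1.41 (-1.46 to -1.36) and -0.28 (-0.37 to -0.18). Ppargc1b, a coactivator of SREBP1, was at -1.48 (-1.73 to -1.24) and -0.97 (-1.37 to -0.58), and Angptl4, likewise an inhibitor of the lipase, at -1.06 (-1.20 to -0.93) and -1.12 (-1.60 to -0.66).

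**Figure D4:**
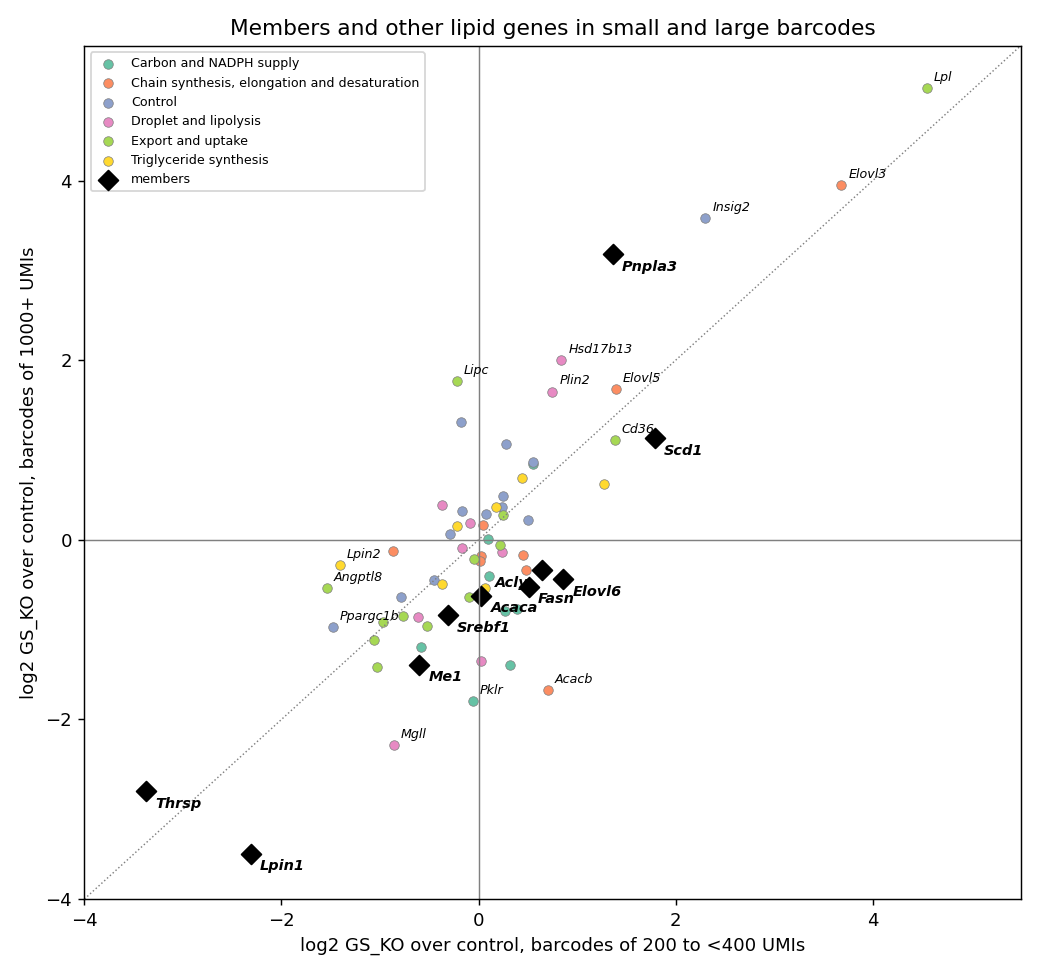
log2 ratio of GS_KO over control in barcodes of 200 to under 400 UMIs (horizontal) and of at least 1000 UMIs (vertical) for the 10 members (diamonds) and the 59 pathway genes with at least 50 UMIs in both classes (circles, coloured by role). The lower right part, higher in small and lower in large barcodes, holds Fasn, Acaca, Acly and Elovl6 with 13 pathway genes, and the dotted line marks equal ratios.

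The pattern of a member over its 6 values (3 size classes in 2 libraries) was compared with that of 5269 genes with at least 50 UMIs in each, as the root mean square difference of centred log2 CPM. Nearest to Thrsp were Cyp7a1 (0.33), Cyp2c38 (0.41), Por (0.41) and Tef (0.42). Nearest to Scd1 were Tars (0.18), H2-Q4 (0.18), Fgl1 (0.19) and Serpina12 (0.20). Nearest to Fasn were Pinx1 (0.11), Snx10 (0.12) and Gtf2f2 (0.13). Fasn had closer neighbours than Thrsp on this measure, which says nothing of shared control.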

How the data were processed

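Per the file headers, the counter used by the authors was Cell Ranger 8.0.0, and per the submitters' processing notes the build was mm10. The deposited values are whole UMI counts per gene and barcode, not normalized, and the lowest barcode held 119 UMIs in control and 123 in GS_KO. How barcodes were chosen for deposit and whether counting used the strand are not given in the sources used here. Sample groups follow the labels.

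Counts were summed over barcodes of each size class and scaled to 1000000 UMIs. Log2 ratios carry 0.5 UMIs added to each sum. Levels have exact 95% Poisson intervals and ratios conditional Clopper-Pearson ones. With 1 library per group no p-value was computed, and a call is a 2-fold difference at 50 or more UMIs in both libraries together. The scripts were tested on simulated data. Barcodes were not clustered and doublets were not removed, so a size class mixes whatever the droplets held. Total UMIs were 38070357 and 43036904 in small and 2182260 and 2443469 in large barcodes, control first. Positions are from GENCODE vM21 (GRCm38) and promoters from RefSeq (GRCm38.p6). The tools were scipy 1.17.1 for intervals, numpy 2.4.6 and pandas 2.3.3 for sums and tables, and matplotlib 3.10.9 for figures. The members and lists were chosen with earlier results of these data known. Named pathway genes are the 4 highest and 4 lowest ratios in small and in large barcodes. Khk and the other pathway genes listed as lying on opposite sides were named after their values were seen. For the pattern comparison the 4 nearest genes to Thrsp, Scd1 and Fasn were taken, and 1 gene of the lists is not reported here.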

Additional observations from a re-analysis of the deposited data

How the results depend on the processing

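In all, 188 member log2 ratios were recomputed under 14 other settings of barcode size, scaling, pseudocount, free RNA or barcode choice. Of these, 155 lay within the counting interval of the reported value, 32 moved outside it and 1 reversed. Counted across these groups, 4 values changed side of 0, the reversed one among them. The reversed value was Scd1 in large barcodes, which with the small-barcode profile taken off at 50% of UMIs became -6.15, a bound from the floor of 3 counts, because no GS_KO UMI was left. In large barcodes the count of members past 2-fold higher was 0 with a minimum of 1500 or 2000 UMIs and with 25% or 50% of UMIs taken off, where Scd1 was at 0.84, 0.49, 0.56 and -6.15. The count past 2-fold lower was 5 with 50% taken off, among them Scd1 at its bound of -6.15. It was also 5 when a 1.5-fold difference with its interval off 0 was asked for, and that rule gave 3 members higher in small barcodes. The members' median in large barcodes was -0.82 from 1500 UMIs, -0.76 from 2000 UMIs and -1.01 with 50% taken off. The last of these counts Scd1 at its bound. Members on opposite sides numbered 2 at a mitochondrial share of at least 5%. Apart from the Scd1 case the cause was not tested. Pnpla3 had no control UMI from 2000 UMIs or at a mitochondrial share of at least 5%, so no ratio is given for it there. No paired analysis was possible because each group has 1 library. Depth limits Pnpla3, with 38 UMIs in large barcodes, and the splits of large barcodes.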
